A study of Mus musculus with 19 samples.

Results

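The 9 genes described here mark the two-cell stage of the mouse embryo: Zscan4a, Zscan4b, Zscan4c, Zscan4d, Zscan4e, Zscan4f, Tcstv1, Tcstv3 and Zfp352. They are the rows of the deposited count table that carry exactly these gene names, 9 of 53379 gene rows. The rule is by name alone, but the genes were picked with earlier results of these data known. The table holds polyA RNA counts of 19 single embryos, made by fertilisation in vitro, grown in the embryo medium KSOM and all collected 96 hours after insemination. In the Alyref cross both parents were Alyref+/-, carrying a deletion in the gene of an mRNA export adaptor, and in the Gabpb1 cross both were Gabpb1+/-, carrying one in the gene of a GABP transcription factor subunit. From Alyref+/- parents there were 2 KO and 3 non-KO morulae, with 3 non-KO blastocysts. From Gabpb1+/- parents there were 3 labelled KO and 2 non-KO morulae, with 3 non-KO blastocysts. From wild-type (WT) B6D2F1 parents there were 3 blastocysts, and B6D2F1 is the strain given for every embryo. Non-KO embryos are WT or heterozygous, no blastocyst was labelled KO, and no WT-parent morula was measured. The submitters assigned KO from missing reads over the deleted stretch in the same libraries. The labels give neither batch nor date, and a batch effect cannot be told apart from an effect of the cross.

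In the mouse, the main wave of transcription from the embryo's own genome starts at the late two-cell stage. The pioneer factor DUX, a double homeobox protein, binds and activates many of the genes of that wave, Zscan4 genes and Zfp352 among them, and retroviral MERVL elements are transcribed with them. These transcripts normally fall within the next cell divisions. The same genes reappear in a rare, transient state of cultured embryonic stem cells called two-cell-like. The Zscan4 genes encode nuclear proteins with a SCAN domain and zinc fingers, known for their part in telomere maintenance in stem cells. Tcstv1 and Tcstv3 encode small two-cell-stage proteins, and Zfp352 encodes a zinc finger protein.

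The Zscan4 genes are near-copies of one another, which bears on every value given for a single one of them. All 6 lie on chromosome 7 in GRCm38, the genome build of the table. Zscan4a (ENSMUSG00000110097.1, annotated as an unprocessed pseudogene) spans 10794242 to 10799057 on the minus strand, and Zscan4b (ENSMUSG00000095339.2) spans 10900740 to 10905050 on the minus strand. Zscan4c (ENSMUSG00000054272.6) spans 11005745 to 11010547 on the plus strand, and Zscan4d (ENSMUSG00000090714.10) spans 11161374 to 11166159 on the minus strand. Zscan4e (ENSMUSG00000095936.3) spans 11306378 to 11310682 on the minus strand, and Zscan4f (ENSMUSG00000070828.10) spans 11397915 to 11402318 on the plus strand. Tcstv1 (ENSMUSG00000096284.2) and Tcstv3 (ENSMUSG00000095821.2) lie on chromosome 13, at 119893388 to 119894785 on the minus strand and at 120316878 to 120318178 on the plus strand. Zfp352 (ENSMUSG00000070902.5) lies on chromosome 4, at 90218820 to 90225702 on the plus strand.

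A stretch of 60 bases of coding sequence shows how little separates the Zscan4 copies. Capitals mark the positions at which the printed sequences differ, and positions are counted from the start of the Zscan4c coding sequence, 636 to 695. Zscan4b and Zscan4e are identical here, and Zscan4c and Zscan4f differ at 1 position in this stretch.
Zscan4b: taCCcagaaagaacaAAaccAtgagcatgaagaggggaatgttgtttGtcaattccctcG
Zscan4c: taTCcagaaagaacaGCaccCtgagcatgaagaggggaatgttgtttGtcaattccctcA
Zscan4d: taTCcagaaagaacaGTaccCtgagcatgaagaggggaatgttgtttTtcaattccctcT
Zscan4e: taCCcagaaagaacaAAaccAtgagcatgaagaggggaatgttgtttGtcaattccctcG
Zscan4f: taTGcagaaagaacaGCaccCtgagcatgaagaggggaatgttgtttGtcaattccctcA

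Over the whole coding sequence the identity was 99.7% between Zscan4b and Zscan4e and 99.6% between Zscan4c and Zscan4f, and the least alike pair, Zscan4b and Zscan4d, still shared 96.4%. Tcstv1 and Tcstv3 were 93.6% identical. Their most divergent stretch of 60 bases, positions 394 to 453 of the Tcstv3 coding sequence, holds differences at 9 positions, again in capitals.
Tcstv1: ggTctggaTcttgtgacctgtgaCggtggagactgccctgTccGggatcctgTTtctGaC
Tcstv3: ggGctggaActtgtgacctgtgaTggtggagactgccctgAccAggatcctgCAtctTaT

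A read of 50 bases can therefore come from several copies. Of all stretches of 50 bases in the longest annotated transcript of a gene, 95.3% also occur in transcripts of another gene for Zscan4f, 91.6% for Zscan4e, 90.3% for Zscan4b, 85.5% for Zscan4c, 63.6% for Zscan4a and 49.6% for Zscan4d. The share was 31.4% for Tcstv3, 16.8% for Tcstv1 and 7.09% for Zfp352. How reads with several matches were counted is not given in the sources used here, and the counts of the near-identical Duxbl1, Duxbl2 and Duxbl3 agree more closely than counting noise allows, by at most a factor of 1.14 and with a chi-square of 0.0171 per degree of freedom. Shared reads may thus enter the counts of several copies. The 6 Zscan4 genes are given below one by one and as a sum, and which copy was transcribed is uncertain. A read counted in several copies would enter that sum more than once. Floors, at-least ratios and counting intervals given for the sum take each count as a separate read, and so may understate even the counting error.

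**Figure D1:**
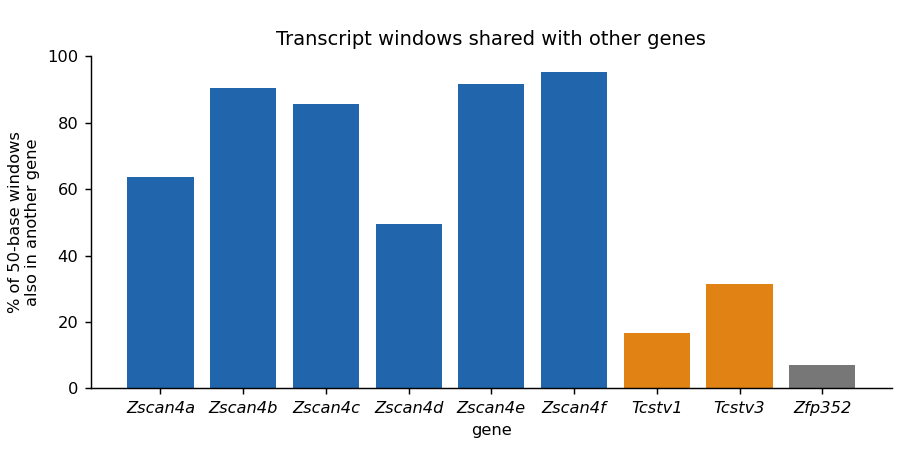
Share of the 50-base stretches of each gene's longest transcript that also occur in transcripts of another gene, in percent, for the 9 genes. The Zscan4 bars stand between 49.6% and 95.3%, and Zfp352 has the lowest bar at 7.09%.

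The upstream sequences were examined for the letters TGATTCAA, a core part of the sequence DUX is known to bind, and for the TATA-box letters TATAAAAG, on both strands. Both motifs were chosen after the sequences had been seen, and a match is only a description. RefSeq promoters for GRCm38.p6 were found for 5 of the 9 genes: Zscan4b, Zscan4c, Zscan4d, Zscan4f and Zfp352. The 250 bases before the annotated start are printed for Zscan4f, Zscan4b and Zfp352, since they show the 3 patterns found, with motif matches in capitals. They lie at chr7:11397665-11397914 (plus strand), chr7:10905051-10905300 (minus strand) and chr4:90218570-90218819 (plus strand).
Zscan4f: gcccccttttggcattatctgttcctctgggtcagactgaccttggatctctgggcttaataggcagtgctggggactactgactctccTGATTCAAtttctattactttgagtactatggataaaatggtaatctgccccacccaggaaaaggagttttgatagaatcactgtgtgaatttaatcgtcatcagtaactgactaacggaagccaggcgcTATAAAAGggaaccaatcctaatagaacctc
Zscan4b: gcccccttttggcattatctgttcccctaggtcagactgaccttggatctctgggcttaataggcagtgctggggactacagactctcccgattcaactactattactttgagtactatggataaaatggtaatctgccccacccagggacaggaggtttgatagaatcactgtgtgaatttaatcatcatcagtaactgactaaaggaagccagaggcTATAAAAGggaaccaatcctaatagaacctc
Zfp352: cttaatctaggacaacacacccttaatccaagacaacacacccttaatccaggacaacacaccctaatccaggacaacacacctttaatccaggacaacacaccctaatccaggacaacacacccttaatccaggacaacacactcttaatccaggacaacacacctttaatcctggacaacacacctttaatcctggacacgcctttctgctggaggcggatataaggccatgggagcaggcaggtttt

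TGATTCAA occurred in the windows of Zscan4c, Zscan4d and Zscan4f, at 184, 195 and 161 bases before the start, and not in that of Zscan4b. TATAAAAG occurred in the windows of all 4 Zscan4 genes. The Zfp352 window held neither set of letters. Of 32851 promoters of the same length, 0.539% held TGATTCAA and 1.51% held TATAAAAG. The 4 Zscan4 windows were 94.7% to 99.6% identical, so they are copies and not separate cases.

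Library depth ranged from 7.49 to 31.5 M gene counts (M, megacounts) per embryo with a median of 13.6 M, and ERCC spike-in RNA took 0.501% to 1.95% of counts. A count of 3, used as the floor of detection, corresponded to 0.0967 to 0.396 CPM (counts per M gene counts) depending on the embryo, and floors and intervals cover counting error only. Alyref fell in the 2 KO morulae, with 47.8 and 58.5 CPM against 210, 291 and 161 CPM in its non-KO counterparts (log2 fold change -2.05, adjusted p 0.0227 by edgeR's quasi-likelihood test). Gabpb1 was not lower in the 3 morulae labelled KO, with 78.2, 259 and 151 CPM against 93.8 and 83.3 CPM, so these are called "labelled Gabpb1 KO" throughout. Counts per gene cannot show a deleted stretch within a gene.

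The 6 Zscan4 genes were close to silent in most embryos. Summed over the 6, the counts were 0 and 12 in Alyref KO morulae, 75, 0 and 0 in Alyref cross non-KO morulae, 21, 0 and 18 in labelled Gabpb1 KO morulae, and 0 and 0 in Gabpb1 cross non-KO morulae. Blastocysts held 5, 0 and 0 counts in the Alyref cross, 1, 2 and 0 in the Gabpb1 cross, and 0, 0 and 1 from WT parents. Counts above the floor of 3 thus stood in 4 of 10 morulae and 1 of 9 blastocysts, and the positive morulae came from 3 of the 4 morula groups, KO and non-KO alike.

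The largest Zscan4 signal was that of the first Alyref cross non-KO morula, 4.07 CPM over the 6 genes. It held 33 counts of Zscan4f, 20 of Zscan4c, 8 each of Zscan4a and Zscan4d, and 3 each of Zscan4b and Zscan4e. In the labelled Gabpb1 KO morulae 1 and 3 the 6 genes summed to 1.81 and 1.28 CPM, with 7 and 4 counts of Zscan4c and 6 and 4 of Zscan4f. In the second Alyref KO morula they summed to 0.8 CPM, with 5 counts of Zscan4e as the highest. On a per-length scale the highest value of any Zscan4 gene was 0.879 FPKM (counts per depth and per kilobase of gene length, without the TMM scaling of the CPM), for Zscan4f, below the minimum of 1 FPKM in 2 embryos that was set for testing. The 6 Zscan4 genes therefore did not enter the main tests.

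Tcstv3 reached the highest level per length of the 9 genes, 165 FPKM against at most 12.3 FPKM for Zfp352 and 7.4 FPKM for Tcstv1. Its counts were 31 and 224 in Alyref KO morulae, 44, 1749 and 3 in Alyref cross non-KO morulae, 8, 192 and 1 in labelled Gabpb1 KO morulae, and 0 and 2 in Gabpb1 cross non-KO morulae. In CPM these were 4.09 and 14.9, then 2.39, 148 and 0.194, then 0.689, 17.8 and 0.0709, then 0 and 0.152. The second Alyref cross non-KO morula alone held 78.5% of the CPM summed over all 19 embryos. Among the 9 blastocysts, 2 held 1 count each and 7 held none.

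Tcstv1 was more evenly spread, with 43.2% of its summed CPM in its highest embryo. It had 7 and 40 counts in Alyref KO morulae, 3, 141 and 10 in Alyref cross non-KO morulae, 39, 11 and 0 in labelled Gabpb1 KO morulae, and 0 and 12 in Gabpb1 cross non-KO morulae. Unlike Tcstv3, it was counted in 8 of 9 blastocysts: 28, 13 and 3 counts in the Alyref cross, 0, 29 and 1 in the Gabpb1 cross, and 2, 4 and 1 from WT parents. The same Alyref cross non-KO morula was highest for both genes, with 11.9 CPM of Tcstv1, and the ranges of morulae and blastocysts overlapped for Tcstv1.

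Zfp352 had its highest level in another embryo than Tcstv1 and Tcstv3. It had 0 and 427 counts in Alyref KO morulae, 0, 8 and 2 in Alyref cross non-KO morulae, 41, 2 and 125 in labelled Gabpb1 KO morulae, and 1 and 0 in Gabpb1 cross non-KO morulae. The second Alyref KO morula, also the third highest for Tcstv3, reached 28.5 CPM, and labelled Gabpb1 KO morulae 3 and 1 reached 8.87 and 3.53 CPM. Of the 9 blastocysts, 8 held no Zfp352 count and 1 WT blastocyst held 24, or 1.54 CPM.

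**Figure D2:**
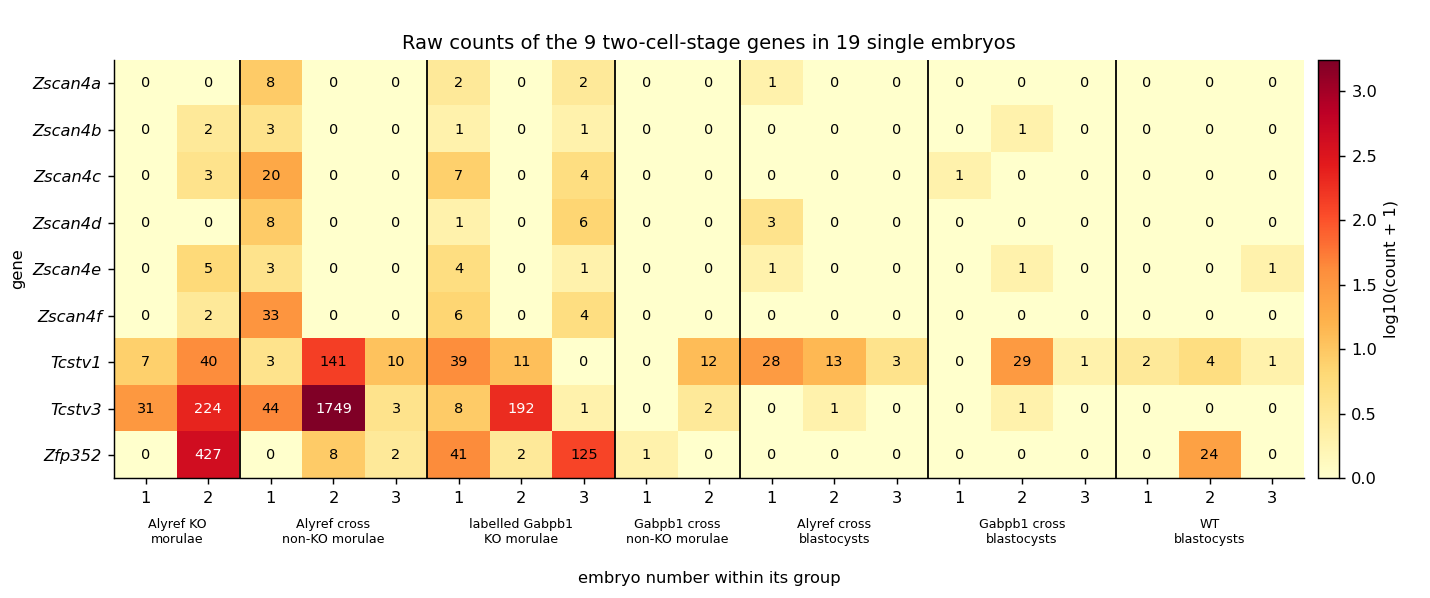
Counts of the 9 genes (rows) in each of the 19 embryos (columns), with the count printed in each cell and the colour on a log10(count + 1) scale. The highest cell is Tcstv3 in the second Alyref cross non-KO morula with 1749 counts, and the Zscan4 rows are at 0 in most embryos.

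The embryos differed in which of the 9 genes they held. In the second Alyref cross non-KO morula, Tcstv3 made up 92.1% of the 1898 counts of the 9 genes and no Zscan4 gene was counted. The second labelled Gabpb1 KO morula had a similar makeup, with 93.7% of 205 counts in Tcstv3 and none in Zscan4. In contrast, Zfp352 made up 60.7% of 703 counts in the second Alyref KO morula and 86.8% of 144 in labelled Gabpb1 KO morula 3, where Tcstv3 had 1 count. In the first Alyref cross non-KO morula, Zscan4 genes held 75 of 122 counts and Zfp352 none. All 9 genes were counted in 1 embryo, the first labelled Gabpb1 KO morula, with 109 counts in all. Zfp352 and the Zscan4 genes were thus not high in the same embryos throughout: both were counted in the second Alyref KO morula and in 2 labelled Gabpb1 KO morulae, but the embryo with most Zscan4 counts had no Zfp352 count.

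Summed over the 9 genes, the levels were 5.02 and 46.9 CPM in Alyref KO morulae, 6.62, 160 and 0.971 CPM in Alyref cross non-KO morulae, 9.38, 19 and 10.2 CPM in labelled Gabpb1 KO morulae, and 0.0711 and 1.06 CPM in Gabpb1 cross non-KO morulae. The group means were 26 ± 29.6 (SD, n = 2), 55.9 ± 90.3 (SD, n = 3), 12.9 ± 5.31 (SD, n = 3) and 0.568 ± 0.703 CPM (SD, n = 2) in that order. In blastocysts they were 0.739 ± 0.405 CPM in the Alyref cross, 1.31 ± 2.14 CPM in the Gabpb1 cross and 0.687 ± 0.957 CPM from WT parents (SD, n = 3 each). The SD was as large as the mean or larger in 5 of the 7 groups, so the order of the means of neighbouring groups rests on single embryos. A whole embryo was read at once, so a few cells with much of these RNAs and many cells with little cannot be told apart.

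**Figure D3:**
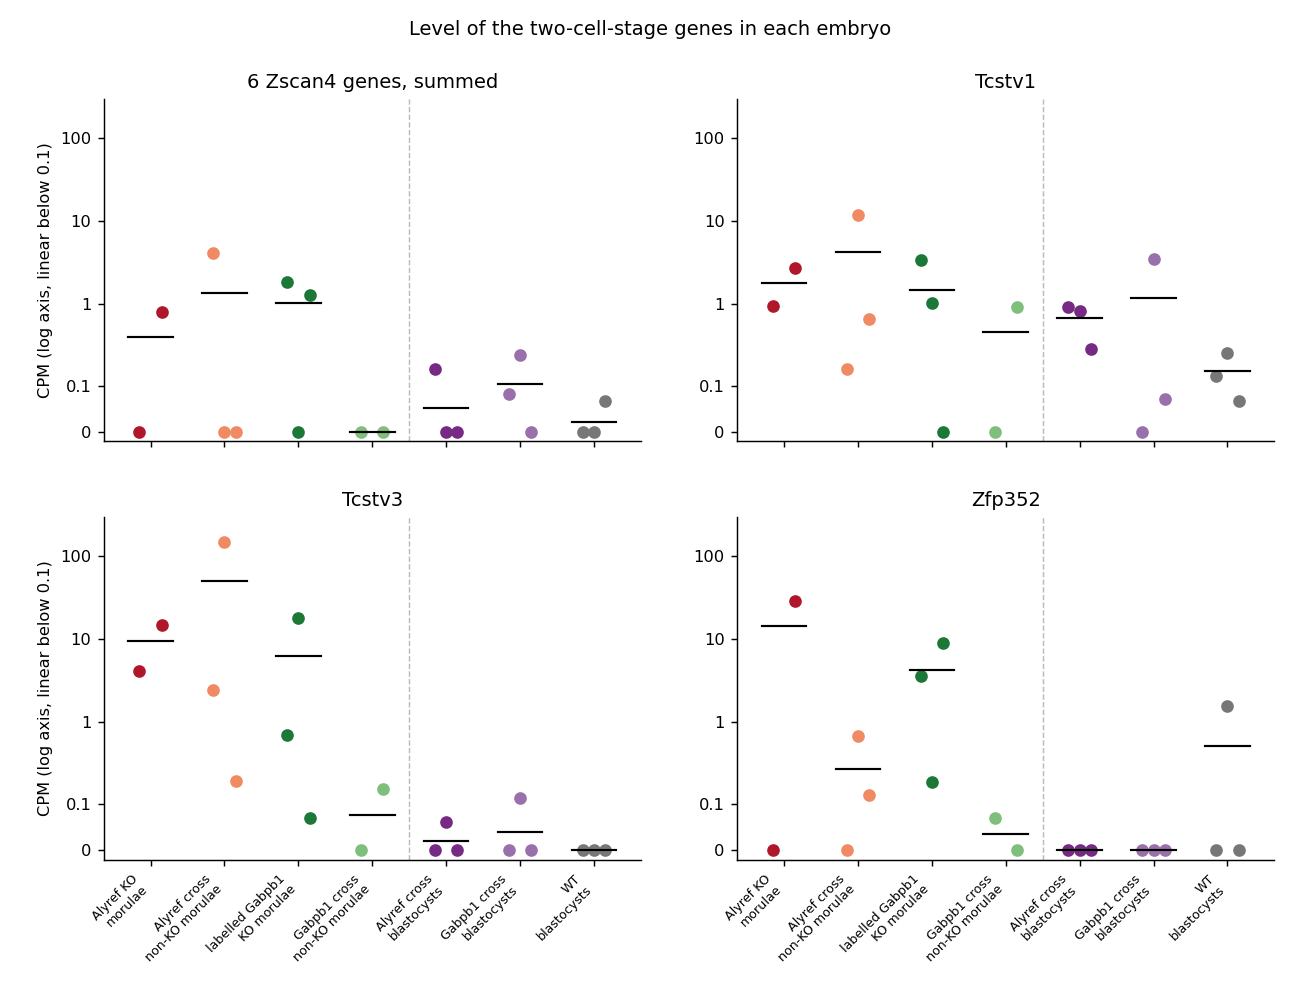
CPM of the 6 Zscan4 genes summed, Tcstv1, Tcstv3 and Zfp352 in each embryo (points) by group, with a line at the group mean, on a log axis that is linear below 0.1. Left of the dashed line are morulae and right of it blastocysts; Tcstv3 spans 0 to 148 CPM in morulae and stays at or below 0.118 CPM in blastocysts.

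The first comparison asked whether the Alyref deletion changed these genes. Between the 2 KO and 3 non-KO morulae of the cross no difference passed the test for the 3 genes that could be tested, in a comparison in which 0.228% of all genes tested were called at an adjusted p under 0.05. Of the 3, Zfp352 had an unadjusted p under 0.05, as had 2225 of all 18410 genes tested. limma called none of the 3, nor did DESeq2, which gave Tcstv3 no p in any comparison. The Zfp352 log2 value stood at 5.82 (SE 2.21, adjusted p 0.306, edgeR), which rests on 1 KO embryo with 427 counts beside 1 with none. Without that embryo the value turned to -4.85, with 0 counts in the 1 KO embryo left and 10 over the non-KO morulae. Set against a floor of 3 counts in that 1 embryo, these counts do not show a lower level. Tcstv3 had -2.38 (SE 1.98, adjusted p 0.697) and Tcstv1 -1.19 (SE 1.80, adjusted p 0.855). As counts per depth, Tcstv3 stood at 0.288 of the non-KO level (95% counting interval 0.251 to 0.328), and at 8.14 times it (5.94 to 11.4) once the second non-KO morula was left out, so 1 embryo set the direction. The 6 Zscan4 genes summed to 12 counts against 75, a ratio of 0.324 (0.16 to 0.6), and all 75 came from 1 non-KO embryo.

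In the Gabpb1 cross the 3 labelled KO morulae stood above the 2 non-KO morulae for the 9 genes summed, 9.38 to 19 CPM against 0.0711 to 1.06 CPM, but no tested gene passed the threshold, in a comparison that called 1.65% of all genes tested. On the log2 scale Tcstv3 was higher by 6.21 (SE 2.93, adjusted p 0.271, edgeR), Zfp352 6.54 (SE 3.02, adjusted p 0.269) and Tcstv1 1.66 (SE 1.96, adjusted p 0.677). None had an unadjusted p under 0.05 in edgeR, nor Zfp352 or Tcstv1 in DESeq2. limma on log2(CPM + 0.1) gave 1 such p and no call, with 3699 such p over all 18410 genes tested. With the replicate number as a block Tcstv3 was called (adjusted p 0.0218). Zfp352 was the 1 tested gene whose groups did not overlap, at 0.185 to 8.87 CPM in labelled KO and 0 to 0.0711 CPM in non-KO morulae. The nearest embryos held 2 counts and 1 count, both below the floor of 3. Of all genes tested, 15.8% were higher without overlap in this comparison of 3 and 2 embryos, so a lack of overlap is common. The Zscan4 sum was at least 9.68-fold higher in labelled KO morulae, with 39 counts against none and a floor of 3 counts over the non-KO group. Tcstv3 was 74.9 times the non-KO level (20.5 to 622), and 4.76 times (0.985 to 45.3) without the second labelled KO morula.

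The KO effects of the 2 crosses did not differ by the test for any of the 3 genes, where 0.907% of all genes tested were called. The difference, Gabpb1 minus Alyref, was largest for Tcstv3 at 8.59 (SE 3.56, adjusted p 0.245), against 2.85 (SE 2.66, adjusted p 0.626) for Tcstv1 and 0.72 (SE 3.20, adjusted p 0.953) for Zfp352. Tcstv3 had an unadjusted p under 0.05 here, as had 3101 of all 18410 genes tested. limma called none of the 3 and DESeq2 neither of the 2 it tested, and with the replicate number as a block Tcstv3 was called (adjusted p 0.0406). Between the non-KO morulae of both crosses Tcstv3 was lower in the Gabpb1 cross without overlap, as were 18.2% of all genes tested. The gap lay between embryos with 2 and 3 counts of Tcstv3, neither above the floor of 3. Tcstv3 was at 0 and 0.152 CPM in the Gabpb1 cross and at 0.194 to 148 CPM in the Alyref cross, a log2 difference of -9.24 (SE 3.10, unadjusted p 0.0102, adjusted p 0.117, edgeR) in a comparison that called 1.86% of all genes tested. limma called none of the 3, and DESeq2 neither Zfp352 nor Tcstv1. Without the second Alyref cross non-KO morula the Tcstv3 value was -3.94, without the third -9.82 (adjusted p 0.0315), and with the block -9.13 (adjusted p 0.0165). The Zscan4 sum was at least 14.9-fold lower in the Gabpb1 cross, from 1 embryo, and Zfp352 (-2.49, SE 3.24) and Tcstv1 (-3.19, SE 2.04) did not pass the test. Labelled KO and KO morulae are each compared with these non-KO morulae, so the 3 comparisons share samples.

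Morulae held more counts than blastocysts of each of the 9 genes. Over all 10 morulae and 9 blastocysts the total counts were 2254 against 2 for Tcstv3, 606 against 24 for Zfp352, 263 against 81 for Tcstv1, 45 against 0 for Zscan4f and 34 against 1 for Zscan4c. Per depth these are ratios of 1173 (95% counting interval 324 to 9692) for Tcstv3, 26.3 (17.5 to 41.3) for Zfp352, 3.38 for Tcstv1 and 14.6 (7.44 to 32.6) for the 6 Zscan4 genes summed. Leaving out the highest embryo of each gives 289, 8.76, 1.72 and 6.85 in that order. Counting intervals do not hold the spread between embryos, and the test across embryos was less clear. The log2 fold change of Tcstv3 was 7.56 (SE 2.85, adjusted p 0.0548, edgeR), that of Zfp352 4.73 (SE 2.47, adjusted p 0.161) and that of Tcstv1 1.59 (SE 0.99, adjusted p 0.229). None of the 3 was called, where 34% of all genes tested were called, 17.2% as higher in morulae. At an unadjusted p under 0.05 stood 1 of the 3 and 8128 of all 18410 genes tested. Tcstv3 and Zfp352 passed the filter for testing through 5 and 3 morulae alone. Their direction towards morulae was thus partly set by that filter, also within the crosses. Tcstv3 passed with limma at either pseudocount (adjusted p 0.0467 and 0.00726) and without the second Alyref cross non-KO morula (log2 6.23, adjusted p 0.015). DESeq2 gave Tcstv3 no p and called Zfp352 (adjusted p 6.06e-10), at a log2 value of 13.99 where edgeR gave 4.73. The blastocysts of both heterozygous crosses held no Zfp352 count, and such groups set no upper bound on a fold change. The morulae include all KO embryos and the blastocysts all embryos of WT parents, so stage and genotype differ together here.

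Within the Alyref cross, where non-KO morulae can be set against non-KO blastocysts, Tcstv3 passed the test as higher in morulae: 2.39, 148 and 0.194 CPM against 0, 0.062 and 0 CPM, without overlap as for 19.2% of all genes tested (log2 fold change 10.87, SE 2.83, adjusted p 0.0272, edgeR). The lowest of these morulae held 3 counts and the highest blastocyst 1, neither above the floor of 3. In this comparison 13% of all genes tested were called, 7.43% as higher and 5.62% as lower in morulae. The call was lost without the second morula (log2 5.57, adjusted p 0.165), without any 1 of the 3 blastocysts (adjusted p 0.106, 0.107 and 0.0799) and when only these 2 groups entered the fit (adjusted p 0.0855). Tcstv1 (2.60, SE 1.65, adjusted p 0.298) and Zfp352 (4.85, SE 3.33, adjusted p 0.343) did not pass. DESeq2, which gave Tcstv3 no p, called Zfp352 (log2 19.54, adjusted p 8.74e-06). Zfp352 had 10 counts over the 3 morulae and 0 over the 3 blastocysts, a ratio per depth of at least 4.21 at the floor of 3 counts. The Zscan4 sum was 18.9 times the blastocyst level (7.76 to 60), with 75 counts in 1 morula against 5 in 1 blastocyst. In a fit with no filter on low values none of the 6 Zscan4 genes was called, the nearest being Zscan4f at 6.11 (SE 2.17, adjusted p 0.125).

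Within the Gabpb1 cross the ranges of morulae and blastocysts overlapped, 0.0711 and 1.06 CPM against 0.0823, 3.79 and 0.0729 CPM for the 9 summed. The fit gave 1.10 (SE 4.64, adjusted p 0.992) for Tcstv3, 2.36 (SE 4.57, adjusted p 0.964) for Zfp352 and -1.28 (SE 1.97, adjusted p 0.957) for Tcstv1, with SE values too wide to tell a difference from none. edgeR called 0% of all genes tested in this comparison, with 1237 genes at an unadjusted p under 0.05, and DESeq2 called 48. None of the 3 described here was among the calls of any tool run.

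Other genes of the two-cell stage can be set beside the 9. A list of 31 further two-cell-stage genes, 28 of them in the table and 25 tested, was chosen with earlier results of these data known. Over all morulae and blastocysts 14 of the 25 were higher in morulae and none lower, beside 17.2% and 16.8% of all genes tested, all 25 had a log2 fold change above 0, and their median was 2.61 against 0.00 over all genes tested. The filter of 1 FPKM in 2 embryos lets in a gene near 0 in blastocysts only through morulae where it is high. For such genes the direction was partly set in advance, here and for the Tcstv relatives and Obox genes below. Sp110, a nuclear body protein gene, rose by 2.80 (SE 0.49, adjusted p 0.000774). Tmem92 rose by 3.51 (SE 0.57), Usp17lb, a deubiquitinase gene, by 5.83 (SE 1.26), Pramef25 by 5.07 (SE 1.18), Rfpl4b by 4.72 (SE 1.10) and Tdpoz1 by 3.74 (SE 0.88). Arg2, the mitochondrial arginase, rose by 1.46 (SE 0.42), and Ubtfl1 by 1.70 (SE 0.36). Many of these, such as the Tdpoz and Usp17l genes, are families of near-copies for which the same uncertainty of counting holds.

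Within the Alyref cross 7 of the 25 were called higher in morulae, beside 7.43% of all genes tested. With each embryo left out in turn that count lay between 0 and 17: it was 0 without the second non-KO morula and 17 without the third. In both KO comparisons 0 of the 25 were called by edgeR. At an unadjusted p under 0.05 stood 3 for Alyref KO and 7 for labelled Gabpb1 KO, beside 2225 and 3476 of all 18410 genes tested. DESeq2 gave a p for 17 of them. It called 0 for Alyref KO, among 432 calls over all genes, and 5 for labelled Gabpb1 KO, among 1212. All 5 were higher: Sp110 by 2.91 (SE 0.83, adjusted p 0.014), Tmem92 by 3.39 (SE 0.96, adjusted p 0.0126), Ubtfl1, Usp17ld and Gm21761. limma on log2(CPM + 1) called 1, Rfpl4b, as higher for Alyref KO, among 209 calls over all genes, and 0 for labelled Gabpb1 KO, among 565. The median log2 fold change was -0.17 for Alyref KO, 2.05 for labelled Gabpb1 KO and -4.87 for Gabpb1 cross against Alyref cross non-KO morulae, beside medians of -0.04, 0.06 and -0.03 over all genes tested.

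The list's summed level differed widely within groups. It was 922 and 1346 CPM in Alyref KO morulae, 394, 2717 and 138 CPM in Alyref cross non-KO morulae, 213, 982 and 604 CPM in labelled Gabpb1 KO morulae, and 128 and 106 CPM in Gabpb1 cross non-KO morulae, against 38.4 to 242 CPM in blastocysts. The highest embryo was the second Alyref cross non-KO morula, as for Tcstv3, and the 3 morulae lowest in this sum were the 3 lowest in the 9 genes. The 2 lists differ in scale, with at most 160 CPM in the 9 genes.

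Further genes of the Tcstv family region on chromosome 13 were measured. Of 5 such relatives, 4 were tested and 3 were called higher in all morulae than in all blastocysts, beside 17.2% of all genes tested. These were BC147527 by 4.47 (SE 1.34, adjusted p 0.0182), D13Ertd608e by 3.93 (SE 0.97, adjusted p 0.00614) and AF067063 by 2.38 (SE 0.69, adjusted p 0.0144). Of their 50-base stretches 14.3%, 92.4% and 70.7% in that order also occur in another gene. In the Alyref cross stage comparison 1 of the 4 was called higher, beside 7.43% of all genes tested. The 5 summed to 133 CPM in the second Alyref cross non-KO morula and to 80.7 CPM in the second Alyref KO morula, against 1.67 to 25.6 CPM in the other 8 morulae. The 3 annotated Zscan4 pseudogenes of the list were not testable, and their sum was highest, 4.78 CPM, in the morula with most Zscan4 counts.

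**Figure D4:**
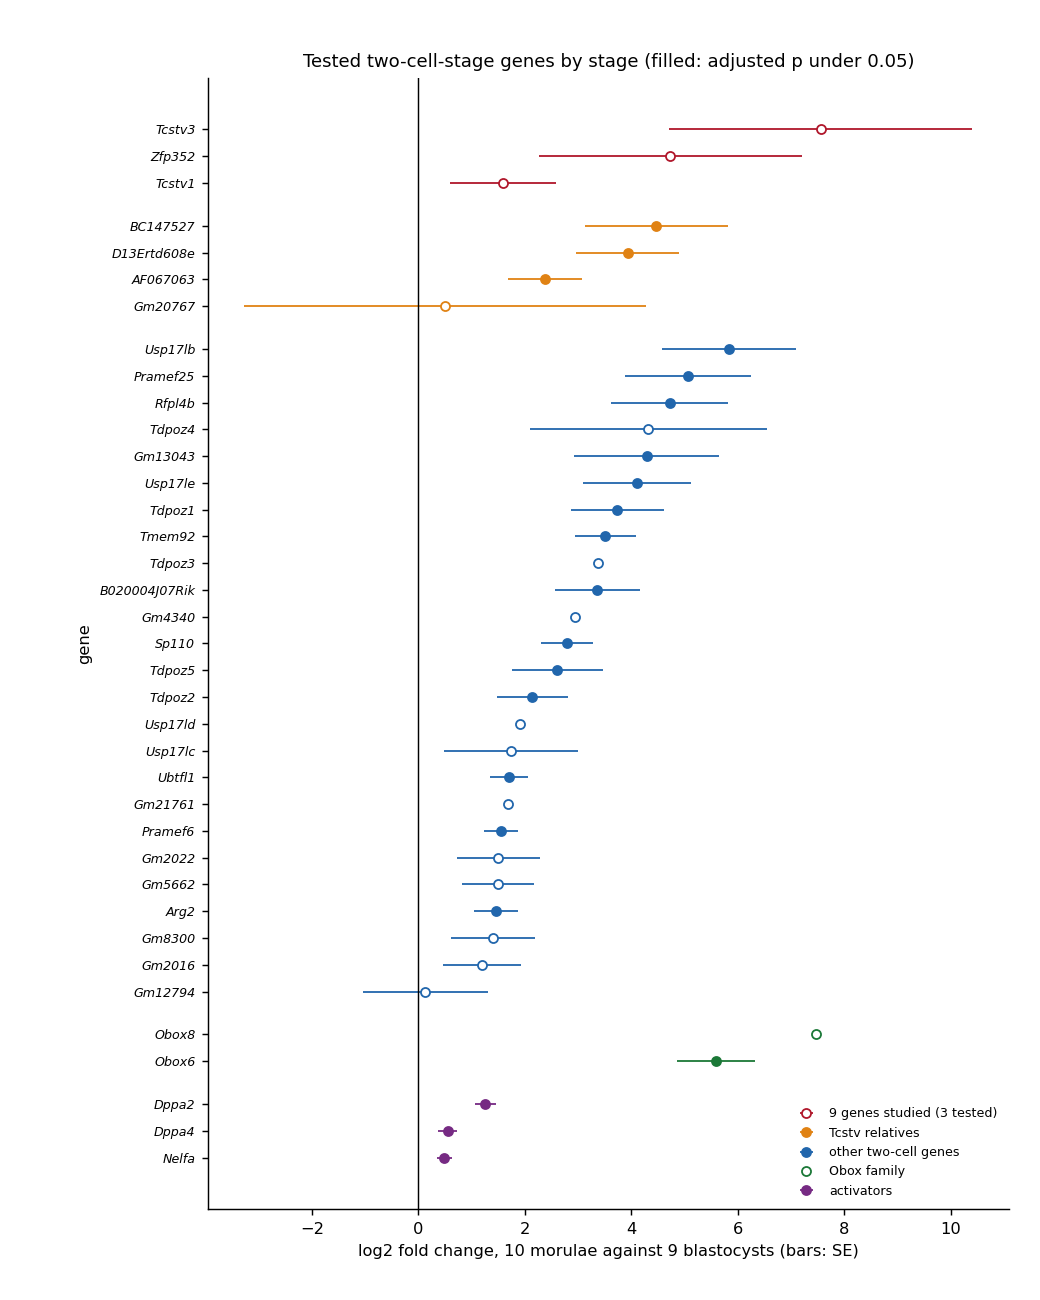
Log2 fold change between 10 morulae and 9 blastocysts (bars are SE back-calculated from the F test) for the tested genes among the 9 and their 4 lists, filled where the adjusted p is under 0.05 by edgeR. Tcstv3, Zfp352 and Tcstv1 have open symbols, with adjusted p from 0.0548 to 0.229, and 5 genes with an SE above 10 are drawn without a bar.

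Genes that act on the 9 genes were measured too. Duxf3, of the DUX family and named here after its values were seen, had 8 counts over all 19 embryos and was not tested. It had 5 of them in the second Alyref cross non-KO morula, the embryo with most Tcstv3. The symbols Dux and Obox4 matched no row, which does not show that these genes were not counted. A gene can stand under another symbol, as Dux may under Duxf3. Dppa2 and Dppa4, which act upstream of Dux in stem cells, were abundant and higher in all morulae than in all blastocysts, by 1.26 (SE 0.20, adjusted p 0.000411) and 0.55 (SE 0.18, adjusted p 0.0305). Nelfa, a maternal elongation factor subunit reported to act on Dux, was higher by 0.49 (SE 0.14, adjusted p 0.0114). Without a filter on low values 1 of these 3 was called. Of 18 repressors of the two-cell programme, chromatin factors for the most part, 5 were higher and 4 lower in morulae, beside 17.2% and 16.8% of all genes tested. With ERCC scaling, which moved the median of all genes by 0.50, none of the 4 was called, and Ehmt2, Trim28, Chaf1a and Setdb1 were at 0.03, 0.02, -0.00 and -0.04. Neither list held a call in either KO comparison by edgeR, DESeq2 or limma. At an unadjusted p under 0.05 in edgeR stood 0 activators and 2 repressors in each. Of all 18410 genes tested, 2225 stood there for Alyref KO and 3476 for labelled Gabpb1 KO.

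Obox genes, a homeobox family of oocytes and early embryos, were chiefly present as Obox6 and Obox8. Obox6 was at 204 and 207 CPM in Alyref KO morulae and at 12.8 and 22 CPM in Gabpb1 cross non-KO morulae. These groups differ in both cross and genotype and were not compared by a test. The 8 Obox rows summed to 215 and 206 CPM in Alyref KO morulae and to 193, 709 and 22.7 CPM in their non-KO counterparts. In the Gabpb1 cross the sum was 84.7, 460 and 347 CPM in labelled KO and 22.3 and 12.8 CPM in non-KO morulae. Obox6 was higher in all morulae than in all blastocysts by 5.59 (SE 0.74, adjusted p 0.000157). DESeq2, but not edgeR, called both genes higher in labelled Gabpb1 KO morulae, Obox6 by 4.07 (SE 1.30, adjusted p 0.0341) and Obox8 by 21.50 (SE 5.59, adjusted p 0.00555), the latter against non-KO morulae with no count. Obox8 had 3070 counts, of which 2667 came from the second Alyref cross non-KO morula, the embryo with most Tcstv3, and none from any blastocyst. It was called in the Alyref cross stage comparison (13.14, SE 3.58, adjusted p 0.0459), a call lost in 5 of 6 fits with 1 embryo left out, at 9.57 (adjusted p 0.134) without that morula. Of the 8 Obox rows, 5 others held 7 to 32 counts each and 1 none.

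Trophectoderm genes and the spike-in share are set beside the 9 genes. The trophectoderm list holds 12 genes, such as the keratin genes Krt8 and Krt18 and the transcription factor gene Cdx2, which mark the outer layer that forms at the blastocyst stage. None of the 12 was at 0 in all embryos. The sum was 4892 to 7720 CPM in the 9 blastocysts. It was 1718 and 803 CPM in Alyref KO morulae, 772, 719 and 2182 CPM in Alyref cross non-KO morulae, 2731, 413 and 1142 CPM in labelled Gabpb1 KO morulae, and 4725 and 2823 CPM in Gabpb1 cross non-KO morulae. The 4 morulae with the lowest sums held 6.62, 19, 46.9 and 160 CPM of the 9 genes. Of the 4 with the highest sums, 3 held 0.0711, 0.971 and 1.06 CPM, and the other, a labelled Gabpb1 KO morula, held 9.38 CPM. Over all morulae and blastocysts 9 of the 12 were lower in morulae (4 with ERCC scaling) and 1 higher, where 16.8% of all genes tested were called lower. The part of the trophectoderm level in the levels of the 9 genes was not tested.

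The spike-in share was 1.54% and 1.95% in the second Alyref cross non-KO morula and the second labelled Gabpb1 KO morula, the 2 embryos in which Tcstv3 made up over 90% of the counts of the 9 genes, and 0.501% to 0.971% in the other 8 morulae. The second Alyref KO morula, second highest in the 9 genes, was at 0.883%. Blastocysts were at 0.872% to 1.59%, with 1.59% in one that held 0.0729 CPM of the 9 genes and 1.54% in one that held 0.134 CPM. The part of the spike-in share in the Tcstv3 levels was not tested. Maternal oocyte transcripts summed to 3405 to 7145 CPM in morulae and 2238 to 4231 CPM in blastocysts. Of the 20 maternal genes 9 were tested, with 3 higher and 1 lower in morulae, where 34% of all genes tested were called. Cumulus cell genes summed to 2.56 to 24 CPM in morulae and 2.35 to 9.63 CPM in blastocysts, nearly all of it Amhr2. Fshr was at 0 in all embryos, and Inhba and Cyp19a1 had 2 counts each over the 19 embryos. Amhr2, the 1 gene tested of this list, was called higher in all morulae than in all blastocysts (log2 1.61) and in the Alyref cross stage comparison (1.84). Beside these calls, 17.2% and 7.43% of all genes tested were called higher.

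**Figure D5:**
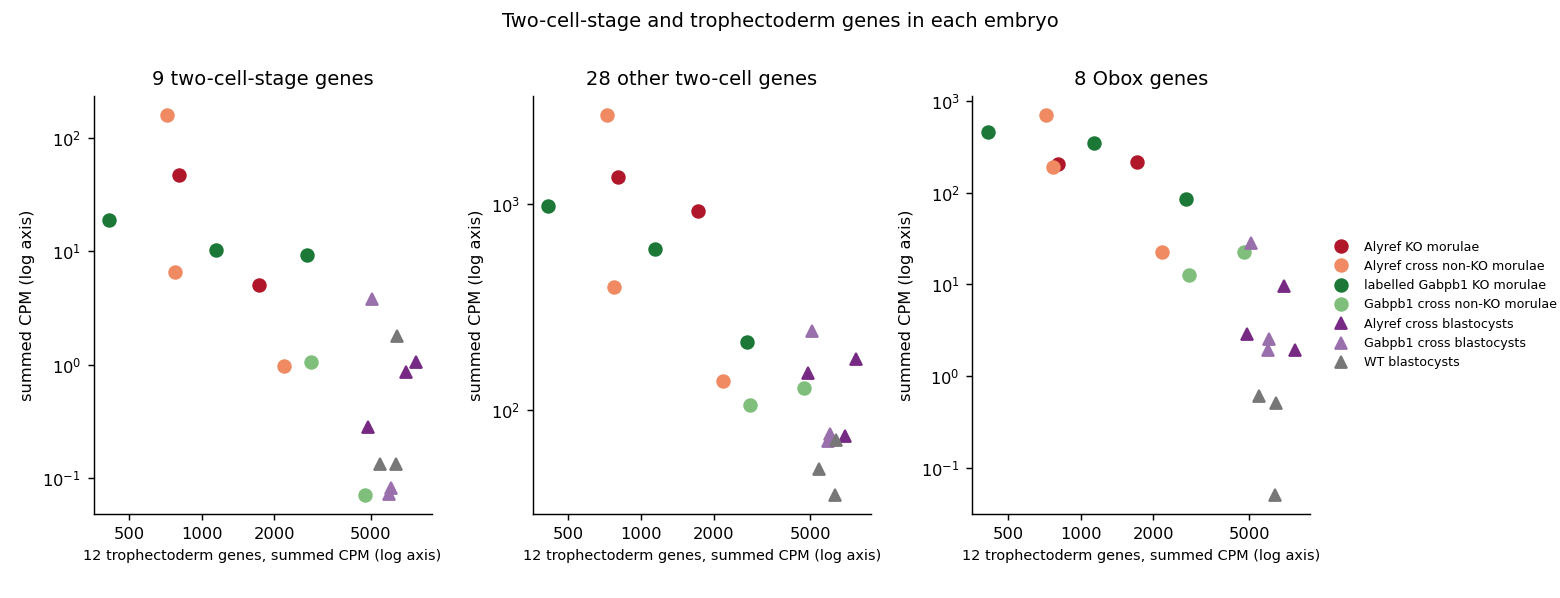
Summed CPM of the 9 genes, of 28 other two-cell-stage genes and of 8 Obox genes (y, log axis) against the summed CPM of 12 trophectoderm genes (x, log axis) in each embryo, circles for morulae and triangles for blastocysts. Blastocysts lie at 4892 CPM and above on x; 1 WT blastocyst with no Obox count is drawn at 0.05.

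Among 14668 genes ranked over the 10 morulae, the gene whose log2(CPM + 1) was most like that of the summed 9 genes was Cks2, which encodes a small subunit of cyclin-dependent kinases (chromosome 13, 51645232 to 51650660). Its Pearson r was 0.97 and its Spearman rho 0.98 over 10 embryos that share libraries and crosses, and r was 0.95 without the 2 morulae farthest from the median of the sum. Cks2 was at 583 and 1104 CPM in Alyref KO morulae, 720, 1435 and 433 CPM in Alyref cross non-KO morulae, 662, 976 and 917 CPM in labelled Gabpb1 KO morulae, and 341 and 367 CPM in Gabpb1 cross non-KO morulae. Gm27597, Gm15452, Gm13216 and Gm12891 followed with r of 0.96 each. All 50-base stretches of Gm15452 and 39.8% of those of Gm12891 occur in Cks2 transcripts, so their counts are not separate from those of Cks2, while Gm27597 and Gm13216 share none. As the highest of 14668 values these correlations are a description only.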

How the data were processed

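The authors deposited 1 table of counts per gene in 19 single-embryo polyA libraries (paired reads of 50 and 25 bases after 16 PCR cycles). Although labelled as FPKM, the table holds whole-number counts, so the test planned for counts was used. Per the submitters' processing notes, Trimmomatic, Trim Galore, cutadapt, STAR and featureCounts were used on mm10 with GENCODE M21. Strand setting and treatment of reads with several matches are not given in the sources used here. The 92 ERCC rows stayed out of library sizes.

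CPM were computed with TMM-scaled library sizes, and FPKM from counts and the deposited gene lengths. Genes with 1 FPKM or more in at least 2 embryos were tested (18410 of 39262 with a count; 3 of the 9 described here) with edgeR 4.0.16's quasi-likelihood test in R 4.3.3, with 1 mean for each of 7 groups, 7 contrasts and Benjamini-Hochberg adjustment over all genes tested. SE is the standard error of the log2 fold change. Replicates are separate embryos. The script was tested on simulated counts. The alternatives were other scalings (RLE, ERCC), other filters, DESeq2 1.42.0, limma 3.58.1 on log2(CPM + 1) or log2(CPM + 0.1), only the compared groups, the replicate number as a block, and leaving out each embryo.

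Count ratios are of summed counts per summed library size, with exact 95% intervals that take each count as a separate read, which may not hold for sums over near-copies. The 9 genes, the lists and the alternatives for list genes were chosen with earlier results of these data known. Named list genes were those called in any contrast and up to 3 of highest mean FPKM, and the genes most like the 9 were the 5 with the highest Pearson r over the 10 morulae among tested genes with a mean of 1 FPKM or more there. Sequences and coordinates are of GRCm38, with promoters from RefSeq GRCm38.p6.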

Additional observations from a re-analysis of the deposited data

Results flagged for a closer look

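Single embryos stood apart from the others of their stage in several of the 9 genes. Among 10 morulae, the 6 Zscan4 genes summed to 4.07 CPM in the first Alyref cross non-KO morula, with 1.81 CPM next. The second Alyref cross non-KO morula held 148 CPM of Tcstv3, with 17.8 CPM next, and 11.9 CPM of Tcstv1, with 3.36 CPM next. The second Alyref KO morula held 28.5 CPM of Zfp352, with 8.87 CPM next. Among 9 blastocysts, the second of the Gabpb1 cross held 3.43 CPM of Tcstv1, with 0.903 CPM next, and the second from WT parents held 1.54 CPM of Zfp352, with 0 in the other 8. These are gaps beyond Dixon's 95% critical value in 6 of 8 sets examined. That value assumes normally distributed levels, while these sets join embryos of several groups and many hold zeros. No chance rate can therefore be set beside the 6 of 8. With Zfp352 at 0 in the other 8 blastocysts, any count in the remaining 1 would have been flagged.

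The KO effects of the crosses differed by edgeR's test of the difference itself for 167 genes, 0.907% of those tested, and 2 of them are among the genes named here. One was Alyref, the gene deleted in 1 of the crosses, with a log2 difference of 1.77. The other was the maternal effect gene Khdc3, at -0.77 in the Alyref cross and 0.77 in the Gabpb1 cross, a difference of 1.54 (SE 0.34, adjusted p 0.0432). The Khdc3 call was lost in 5 of 9 other settings, among them ERCC scaling (1.06, adjusted p 0.991) and the replicate block (adjusted p 0.0759). It was also lost in 7 of 10 fits with 1 embryo left out (adjusted p up to 0.192).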

How the results depend on the processing

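Members called numbered 1 in the Alyref cross stage comparison (Tcstv3) and 0 in the other 6. In that comparison the count was 0 with limma at either pseudocount (adjusted p 0.0518 and 0.122) and with only the compared groups, and 1 with DESeq2, where the gene was Zfp352 (adjusted p 8.74e-06) and Tcstv3 got no p. Over all morulae and blastocysts it was 1 with ERCC scaling, limma at either pseudocount, no filter and the replicate block, each time Tcstv3 (adjusted p 0.00303, 0.00726, 0.0467, 0.0275 and 0.00055), and 1 with DESeq2 (Zfp352, adjusted p 6.06e-10). Leaving out 1 embryo gave 0 to 1 in both and in the comparison between crosses, and 0 in the other 4. The DESeq2 calls of Zfp352, at log2 values of 19.54 and 13.99, involve blastocyst groups with no Zfp352 count. No call of the 9 genes arose in the Alyref KO or Gabpb1 cross stage comparison in any setting. The cause of these changes was not tested.

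Fold changes of uncalled genes turned sign in places. In the Alyref KO comparison Tcstv1 was 0.34 with limma on log2(CPM + 0.1), and Tcstv3 was 0.74 and, with log2(CPM + 1), 0.09. There, leaving out 1 embryo gave -2.19 to 2.18 for Tcstv1, -3.63 to 2.89 for Tcstv3 and -4.85 to 7.70 for Zfp352. The -4.85 rests on 1 KO embryo with no Zfp352 count. In the difference between KO effects Zfp352 was -0.27 with log2(CPM + 1), and -1.20 to 11.39 with 1 embryo left out, and Tcstv1 -0.58 to 8.57. Tcstv1 ranged from -8.90 to 0.21 between crosses, from -0.79 to 3.15 in the Alyref cross stage comparison and from -6.99 to 3.30 in that of the Gabpb1 cross, where Tcstv3 ranged from -2.14 to 3.26. Tdpoz4 ranged from -0.79 to 7.53 in the Alyref cross stage comparison. With ERCC scaling, which moved the median log2 fold change of all genes by 0.50 over all stages, the 4 repressors called lower lost their calls: Ehmt2 and Trim28 were at 0.03 and 0.02, Chaf1a and Setdb1 at -0.00 and -0.04. The summed level of the 9 genes, taken per group under other scalings, moved by less than the SD between embryos in all 14 cases. That SD was often as large as the mean, so this is a lenient check.

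Embryos share replicate numbers across groups, and same-numbered morulae of a cross correlated by -0.0957 to 0.115 in their deviations from group means. In groups of 2 embryos these deviations mirror each other, and blastocysts were not compared. The values therefore cannot show whether a number stands for a shared origin. The replicate block gave 1 call, Tcstv3, in the labelled Gabpb1 KO comparison (log2 6.66, adjusted p 0.0218), in the difference between KO effects (7.83, adjusted p 0.0406) and between crosses (-9.13, adjusted p 0.0165). Each Zscan4 gene had 0 to 33 counts per embryo, and 1 morula held 75 of the counts summed over the 6, so their group ratios rest on few embryos. Over all genes edgeR called 42, 303 and 0 genes in the Alyref KO, labelled Gabpb1 KO and Gabpb1 cross stage comparisons, and DESeq2 432, 1212 and 48.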

Other observations

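Epiblast genes and primitive endoderm genes were also measured. Of 8 epiblast genes 2 were higher and 1 lower in all morulae than in all blastocysts, and of 8 primitive endoderm genes 4 were lower, where 17.2% of all genes tested were called higher and 16.8% lower. In the KO comparisons edgeR called none of these 16 genes. At an unadjusted p under 0.05 stood 3 for Alyref KO and 4 for labelled Gabpb1 KO, beside 2225 and 3476 of all 18410 genes tested. DESeq2 called 2, Klf2 by 2.16 (SE 0.55, adjusted p 0.00467) and Esrrb by 1.82 (SE 0.56, adjusted p 0.0241), both as higher in labelled Gabpb1 KO morulae. In that comparison it called 1212 of all 18410 genes tested.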
